A study of Mus musculus with 6 samples.

Results

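Canonical Wnt target genes, the genes that beta-catenin switches on in many tissues, were followed in bulk RNA-Seq of lateral cortex at E12.5. The list was set by name and holds 9 genes: Axin2, Lef1, Nkd1, Notum, Sp5, Tcf7, Lgr5, Rnf43 and Znrf3. Of these, 8 were measured among 17068 genes, and Notum is not analysed here. The study compared 4 controls without Cre with 2 libraries labelled Foxp1cKO, all from female embryos of the strain given as c57/bl6. By their labels, controls 1, 2 and 4 were Foxp1 fl/+, control 3 was Foxp1 fl/fl, and both libraries labelled Foxp1cKO were Foxp1 fl/fl;Emx1Cre. Every library therefore carried at least 1 floxed allele of Foxp1, a forkhead transcription factor. Emx1 drives Cre in progenitors of the dorsal telencephalon and their progeny, so endothelial cells, microglia and meningeal cells in the dissected tissue are not its targets.

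Wnt proteins bind Frizzled receptors together with the co-receptors Lrp5 and Lrp6, which stops the destruction of beta-catenin by the Axin and Apc complex. Beta-catenin then enters the nucleus and acts with the DNA-binding proteins of the Lef1 and Tcf family. Many of its targets are themselves regulators of the pathway, and several close negative feedback loops. In the embryonic cortex the pathway is strongest on the medial side, next to the cortical hem, and falls towards the lateral side. Brain endothelial cells also respond to Wnt ligands made by neural progenitors.

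Each library held between 50076008 and 78346979 counts over these genes. Levels are in CPM (a gene's counts scaled to a fixed total per library), on library sizes adjusted by edgeR's TMM method. A floor of 3 counts stood at 0.0381 to 0.0596 CPM, which covers counting error only. Foxp1 was at 59.7, 60.8, 71.2 and 79.1 CPM in controls 1 to 4, and at 83.2 and 76.8 CPM in the libraries labelled Foxp1cKO. It was thus not lower in the latter. Floxed and other exons are summed in this count, so every direction below rests on the labels. Regional markers placed control 3 at the end of the range of the controls. All 9 listed markers of the ventral telencephalon were highest there among the controls, against 31.2% of all genes, with a summed level of 889 CPM against 238 to 368 CPM in the other controls and 404 to 546 CPM in the libraries labelled Foxp1cKO. Nkx2-1, which marks the medial ganglionic eminence, was at 13.2 CPM in control 3 and between 0.216 and 1.07 CPM in the other 5 libraries. The dorsal genes Emx1 and Emx2 were present in every library, and were lowest in control 3 at 68.8 and 42.4 CPM. By these markers every library held dorsal tissue, with more of the ventral markers in control 3. They do not show that the tissue of any library was cortical only.

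Sequences recognised by Lef1 and Tcf proteins were looked for in the promoter windows that RefSeq gives for 6 of the 8 measured genes (GRCm38.p6, from 250 bases before to 50 bases after a start, 11 windows). The motif was taken as the sequence CTTTGAA, its variant CTTTGAT, the sequence CTTTGTA or its variant CTTTGTT, each on either strand. Sp5 held 2 matches in its only window, and Lef1 held 1 in the window of an internal start. They are shown as the matches found in these windows, and sequence outside the windows was not searched. Each has the match in capitals and 10 bases on each side, written 5′ to 3′ on the strand of the gene.
Sp5, chr2:70474691-70474717, plus strand, match at -222 from the start: tcctagagatAACAAAGacactttgtc
Sp5, chr2:70474809-70474835, plus strand, match at -104 from the start: gcaaggccccCTTTGATcaggaaaatc
Lef1, chr3:131156137-131156163, plus strand, match at -147 from the start: aacctcagaaTACAAAGtaggattgca
The first and the last of these read on the opposite strand. Of all 32851 RefSeq promoter windows, 16.9% hold the motif, and 2 of the 11 windows of the targets do. The forkhead motif TGTTTAC, also searched on both strands, was in 1 of the 11 windows, that of an internal start of Tcf7, against 3.65% of all windows. A match is only a run of letters and was not tested for binding.

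No Wnt target gene passed the tests between the groups. With edgeR's quasi-likelihood test over all genes, 0 of the 8 had an adjusted p-value under 0.05, against 0.152% of all genes (26 of 17068). At an unadjusted p-value under 0.05 the number was also 0, against 13% of all genes. DESeq2 (2.97% of all genes) and limma (0.158%) likewise called 0 of the 8, and had 0 of them at an unadjusted p-value under 0.05, against 13.9% and 13.6% of all genes. The ranges of the groups overlapped for all 8 genes, whereas 24.6% of all genes had no overlap between the groups. Of the 8 log2 fold changes, 5 were positive and 3 negative, with a median of 0.16 against -0.0044 over all genes tested. In bulk tissue, fewer cells of a type and less RNA per cell cannot be told apart.

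**Figure D1:**
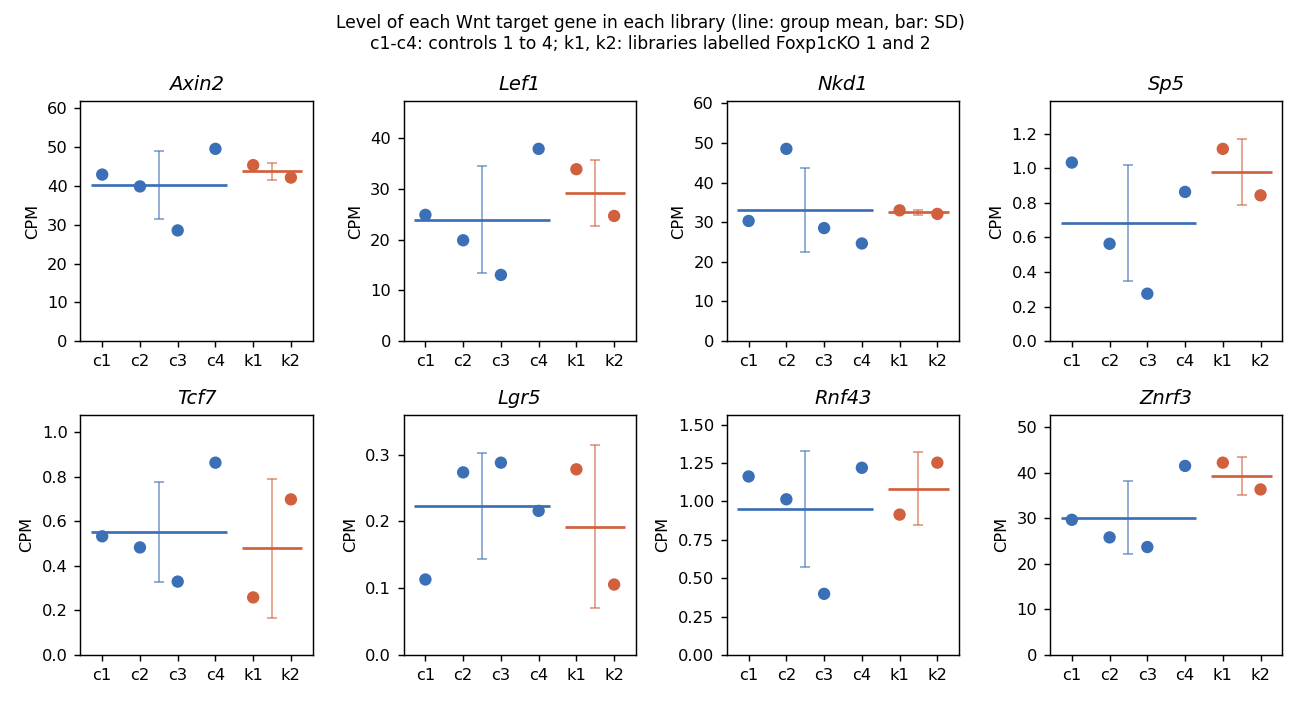
Level in CPM (y axis, from 0, own scale in each panel) of the 8 Wnt target genes in each library (x axis), with 4 controls in blue and 2 libraries labelled Foxp1cKO in orange, lines at group means and bars for the SD. The orange points fall within or overlap the range of the blue points for each gene, and Axin2 and Lef1 are lowest in control 3 and highest in control 4.

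Negative feedback inside the cell is represented by Axin2 and Nkd1. Axin2, a scaffold of the complex that destroys beta-catenin and the target most widely used as a readout of the pathway (ENSMUSG00000000142.15, chromosome 11, 108920349 to 108950783), was at 42.9, 39.9, 28.5 and 49.6 CPM in controls 1 to 4. It was at 45.4 and 42.2 CPM in the libraries labelled Foxp1cKO, both inside the range of the controls. The control mean was 40.2 ± 8.78 CPM (SD, n = 4), and that of the libraries labelled Foxp1cKO was 43.8 ± 2.27 CPM (SD, n = 2). Its log2 fold change was 0.12 (SE 0.199, edgeR adjusted p = 0.832, Benjamini-Hochberg over all genes). The 95% confidence interval of the fold ran from 0.786 to 1.51, so a difference of up to that size in either direction was within the error. Without control 3, the fold change of Axin2 was -0.026 on the log2 scale. Nkd1, which binds Dishevelled and dampens the signal (ENSMUSG00000031661.12, chromosome 8, 88521354 to 88594884), was at 30.3, 48.5, 28.5 and 24.6 CPM in controls 1 to 4 and at 33.0 and 32.1 CPM in the libraries labelled Foxp1cKO. Control 2 was the high library for Nkd1, not control 4. Its log2 fold change was -0.019 (SE 0.257, edgeR adjusted p = 0.982), with a confidence interval of the fold from 0.648 to 1.503. Without control 2 the fold change turned to 0.23 (edgeR adjusted p = 0.656).

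Among receptor-level regulators, Znrf3 was the most expressed. Znrf3 and Rnf43 are related membrane ubiquitin ligases that remove Frizzled receptors from the cell surface, and Lgr5 is a receptor for R-spondins, the secreted proteins that clear both ligases. Znrf3 (ENSMUSG00000041961.14, chromosome 11, 5276324 to 5444847) was at 29.7, 25.8, 23.7 and 41.5 CPM in controls 1 to 4 and at 42.2 and 36.3 CPM in the libraries labelled Foxp1cKO. Both of the latter were above controls 1, 2 and 3, and control 4 lay between them. The log2 fold change of 0.38 (SE 0.22, edgeR adjusted p = 0.499) had the smallest p-value of the 8 genes, 0.128 before adjustment in edgeR's test. The confidence interval of the fold was 0.907 to 1.87. Control 4 weighed most on this value: without it the log2 fold change was 0.57, with an unadjusted p of 0.00292 and an adjusted p of 0.113 from edgeR's test. Rnf43 (ENSMUSG00000034177.15, chromosome 11, 87662722 to 87735539) was at 1.16, 1.01, 0.398 and 1.22 CPM in controls 1 to 4 and at 0.914 and 1.252 CPM in the libraries labelled Foxp1cKO. Only control 3 was clearly low, and without it the log2 fold change of 0.20 became -0.071. Lgr5 (ENSMUSG00000020140.15, chromosome 10, 115450311 to 115587780) was close to the floor. It had 7, 17, 21 and 17 counts in controls 1 to 4 and 14 and 8 counts in the libraries labelled Foxp1cKO. Its confidence interval of the fold, 0.337 to 2.03, shows how little this depth can resolve.

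The transcription factors of the list were Lef1, Tcf7 and Sp5. Lef1, which is both a partner and a target of beta-catenin (ENSMUSG00000027985.14, chromosome 3, 131110471 to 131224356), was at 24.9, 19.9, 13.0 and 37.9 CPM in controls 1 to 4. It was at 33.9 and 24.7 CPM in the libraries labelled Foxp1cKO, of which the first was below control 4 alone and the second just below control 1. The control mean was 23.9 ± 10.5 CPM (SD, n = 4) against 29.3 ± 6.51 CPM (SD, n = 2), and the log2 fold change was 0.29 (SE 0.379, edgeR adjusted p = 0.780). The estimate rested heavily on single libraries, from 0.044 without the first library labelled Foxp1cKO to 0.60 without control 4. Without control 3 it was 0.074. Sp5, a zinc finger factor of the Sp family (ENSMUSG00000075304.2, chromosome 2, 70474923 to 70477729), gave 0.51 as its log2 fold change (SE 0.494, edgeR adjusted p = 0.690), which ran from 0.23 without control 3 to 0.76 without control 1. It was at 1.03, 0.563, 0.274 and 0.864 CPM in controls 1 to 4 and at 1.11 and 0.844 CPM in the libraries labelled Foxp1cKO, so the groups overlapped. Tcf7, which encodes TCF1 (ENSMUSG00000000782.15, chromosome 11, 52252371 to 52283014), was at 0.533, 0.483, 0.329 and 0.864 CPM in controls 1 to 4. The libraries labelled Foxp1cKO lay far apart for Tcf7, at 0.258 and 0.699 CPM, and its log2 fold change of -0.18 (SE 0.516, edgeR adjusted p = 0.911) had a confidence interval of the fold from 0.379 to 2.05. Lef1 shares 1208 exonic bases with the antisense gene Gm43352 and Axin2 shares 209 with the antisense gene Gm11670. The strand setting of the counting is not given in the sources used here, so reads over these bases cannot be told apart.

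**Figure D2:**
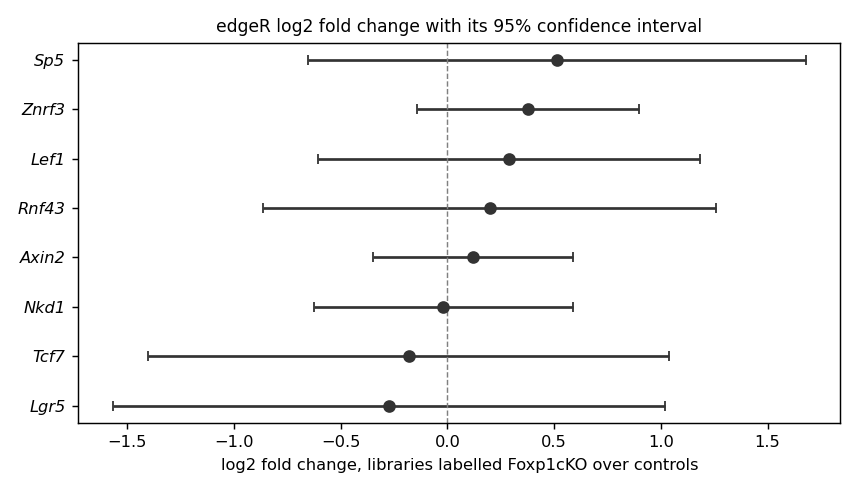
Log2 fold change of the 8 measured Wnt target genes, libraries labelled Foxp1cKO over controls (x axis), as points with 95% confidence intervals from edgeR's fit. Each of the 8 intervals crosses 0, and the intervals of the weakly expressed Sp5, Tcf7, Lgr5 and Rnf43 are wider than that of Axin2.

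Levels were compared between genes per length, as CPM per kilobase of annotated exon (RPKM, on the union of all annotated exons of a gene). Axin2 at 7.31 ± 1.59 and Nkd1 at 7.24 ± 2.33 RPKM led the list in the controls (SD, n = 4), and their order was not fixed, since the ratio of Axin2 to Nkd1 ran from 0.680 to 1.67 over the 6 libraries. Znrf3 followed at 3.82 ± 1.01 and Lef1 at 2.72 ± 1.19 RPKM (SD, n = 4). Their ranges overlapped, although Lef1 was below Znrf3 within every library, at 0.494 to 0.819 of it. A gap then separated Lef1, at 1.48 RPKM or more in each library, from Sp5, at 0.530 RPKM or less. Sp5 at 0.326 ± 0.160, Tcf7 at 0.210 ± 0.0857 and Rnf43 at 0.145 ± 0.0575 RPKM (SD, n = 4) had overlapping ranges. Lgr5 was last at 0.0217 ± 0.00774 RPKM (SD, n = 4), and its highest library was below the lowest library of Rnf43.

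**Figure D3:**
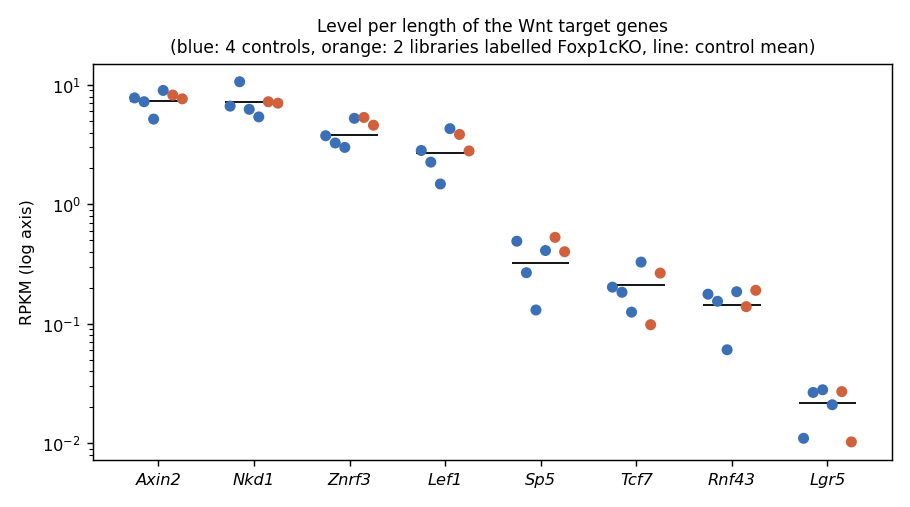
Level in RPKM (y axis, log scale) of the 8 Wnt target genes in order of their control mean (black line), with each library as a point, controls in blue and libraries labelled Foxp1cKO in orange. Axin2, Nkd1, Znrf3 and Lef1 lie above 1.48 RPKM in all libraries and the other 4 genes below 0.530 RPKM.

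Within families, Axin2, Lef1, Tcf7, Lgr5 and Rnf43 were below a paralogue. Tcf7l1, the family member known mainly as a repressor, made up 76.7 ± 1.53% of the summed RPKM of the Lef1 and Tcf genes over the controls (SD, n = 4). In the libraries labelled Foxp1cKO its share was 75.1 ± 1.82% (SD, n = 2). Lef1 held 13.4 ± 2.57% and 13.9 ± 1.298%, Tcf7l2 held 8.89 ± 1.97% and 10.2 ± 1.12%, and Tcf7 held 1.04 ± 0.153% and 0.802 ± 0.601%. The first value of each pair is that of the controls, and for all 4 genes the shares of the groups overlapped. Axin2 stood at 0.376 ± 0.0632 of the level of Axin1, the paralogue expressed without Wnt input (SD, n = 4, ratio of RPKM), and at 0.453 and 0.418 in the libraries labelled Foxp1cKO. The first of these ratios exceeded all 4 controls and the second lay below control 4 (0.446). Rnf43 was at 0.0202 to 0.0473 of Znrf3 over the 6 libraries, and Lgr5 at 0.00487 to 0.0254 of Lgr4.

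The targets spread widely among the controls. Of the 8 genes, 6 were lowest in control 3 among the controls, and 5 of these were highest in control 4. Over all genes, 34.5% were lowest in control 3 and 36.3% highest in control 4. The median of control 4 minus control 3 was 1.06 on the log2 CPM scale over the 8 genes, against 0.035 over all genes. Lef1 differed by 1.54, Sp5 by 1.55, Rnf43 by 1.55 and Tcf7 by 1.32 between these controls, Axin2 by 0.80 and Znrf3 by 0.81. Nkd1 and Lgr5 went the other way, by -0.21 and -0.37. The mean of the libraries labelled Foxp1cKO, set against controls 1, 2, 3 and 4 one at a time, gave medians of 0.064, 0.10, 0.67 and -0.18 over the 8 genes, with 7 of the 8 higher than in control 3 and 2 of the 8 higher than in control 4. Without control 3 the median fold change of the list fell from 0.16 to -0.048, and without control 4 it was 0.29. For the 4 genes above 10 CPM, the SD of log2 CPM over the controls had a median of 0.39, against 0.13 over the 10099 genes at that level. Counting error was small beside it for these 4 genes. For Lef1 the SD over the controls was 43.9% of the mean, where counting alone gives 2.44%, while for Lgr5 these values were 35.7% and 25.4%.

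Markers of region and cell type moved over the same libraries. In control 3, where 6 of the targets were lowest among the controls, the summed markers of the cortical hem and choroid plexus were at 3.76 CPM, against 15.4 to 23.3 CPM in the other controls and 12.6 to 14.9 CPM in the libraries labelled Foxp1cKO. All 6 measured markers of that list were lowest in control 3 among the controls, and 0 of them were at 0 on average. That list shares Wnt2b and Rspo2 with the pathway lists. Meningeal mesenchyme markers were also lowest there, at 93.6 CPM against 173 to 567 CPM in the other controls, with 7 of 8 lowest in control 3. The libraries labelled Foxp1cKO were at 151 and 343 CPM. Radial glia markers summed to 2033 CPM in control 3 and to between 2399 and 2599 CPM in the other controls, with 6 of 8 lowest in control 3, and to 2354 and 2256 CPM in the libraries labelled Foxp1cKO. Markers of intermediate progenitors and neurons ran the other way, at 5321 CPM in control 3 and 3053 CPM in control 4, with 3905 and 4056 CPM in the libraries labelled Foxp1cKO. Control 3 is also the only control with 2 floxed alleles, so its genotype and the make-up of its tissue cannot be told apart, and their part in the levels of the targets was not tested.

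**Figure D4:**
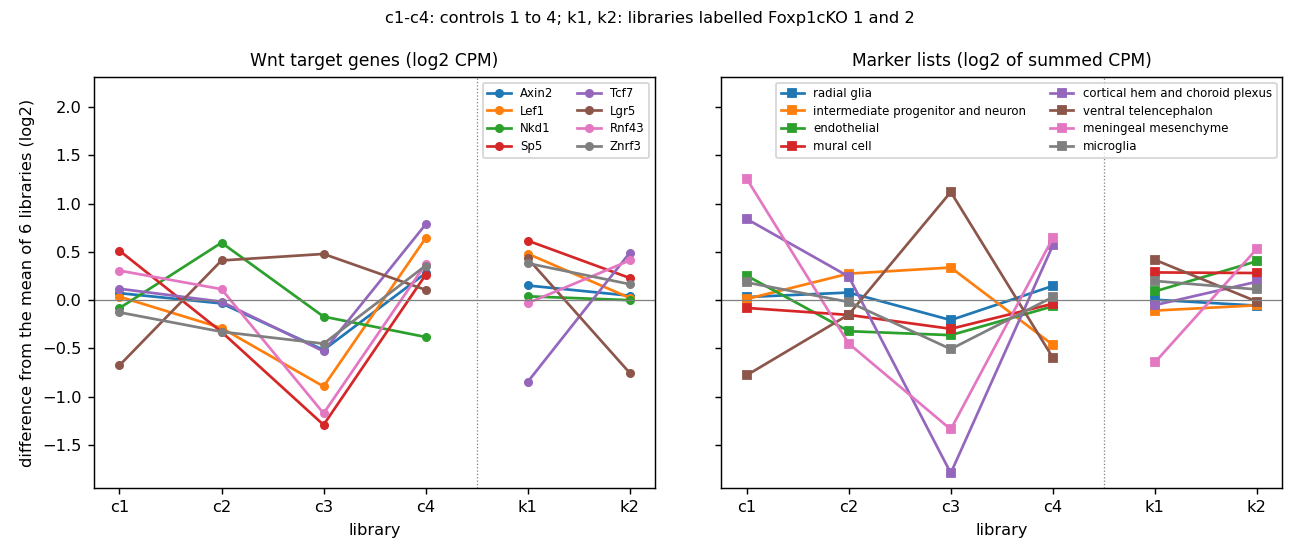
Left, log2 CPM of each Wnt target gene as the difference from its mean over the 6 libraries (y axis) in each library (x axis). Right, the same for the log2 summed CPM of each marker list, with lines drawn within a group only to follow a gene or list. In control 3 (c3), 6 of the 8 targets are lowest among the controls, together with the hem, mesenchyme and radial glia lists, while the ventral telencephalon list is highest.

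The 5 genes whose profile over the 6 libraries was closest to that of Axin2 were Hpcal1, Ppfibp1, Rragd, Gbe1 and Lpar4, with a root mean square difference of centred log2 CPM between 0.0271 and 0.0491 among 13854 genes at 1 CPM or more. Hpcal1 encodes a neuronal calcium sensor and Ppfibp1 a liprin. Rragd encodes a GTPase of nutrient sensing, Gbe1 the glycogen branching enzyme and Lpar4 a receptor for lysophosphatidic acid. Each was lowest in control 3 among the controls, as was Axin2, which follows from how they were chosen. Of the targets at that level, Znrf3 ranked 1447th at 0.184, Lef1 5807th at 0.274 and Nkd1 10871st at 0.406. This measure counts the size of the changes between libraries as well as their direction. A gene that moves with Axin2 but more strongly therefore ranks low. Lef1, like Axin2, was lowest in control 3 and highest in control 4, but differed by 1.54 between them, against 0.80 for Axin2.

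Cells outside the Emx1 lineage also express Wnt targets, and the markers of vessel cells did not all follow the targets. Of 12 endothelial markers, Flt1, which encodes a VEGF receptor, was the only one to pass edgeR's test, and DESeq2 called Pecam1 beside it (0.152% and 2.97% of all genes passed the respective tests). Flt1 was between 12.5 and 18.1 CPM in the controls and at 44.6 and 54.2 CPM in the libraries labelled Foxp1cKO (log2 fold change 1.64, SE 0.159, edgeR adjusted p = 0.0179). Its fold change stayed between 1.47 and 1.77 on the log2 scale when single libraries were left out. The call was lost without control 1 (edgeR adjusted p = 0.0706), without control 2 (0.101) and with a replicate block (0.149). That block compares only libraries 1 and 2 of each group. Cdh5, which encodes VE-cadherin, had a log2 fold change of 0.0035 (SE 0.257, edgeR adjusted p = 0.996). Of the 12 markers, 8 were higher and 4 lower, with a median log2 fold change of 0.068 and the lowest at -0.35 for Tek. The summed endothelial level was 157 to 241 CPM in the controls and 215 to 267 CPM in the libraries labelled Foxp1cKO. Mural cell markers summed to 195 to 234 CPM in the controls and to 292 to 293 CPM in the others, with 0 of 8 past edgeR's test, 4 at an unadjusted p-value under 0.05 (13% of all genes) and 1, Rgs5, called by DESeq2 (2.97% of all genes). Microglia markers summed to 19.9 to 32.1 CPM in the controls and to 30.5 to 32.4 CPM in the others, lowest in control 3, as were the endothelial and mural sums among the controls. The part of these cells in the levels of Lef1 and the other targets was not tested.

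Upstream and beside the targets, 104 other genes of the pathway were listed by role, of which 89 were measured. By edgeR's test 0 of them passed, against 0.152% of all genes, and 14 had an unadjusted p-value under 0.05, against 13% of all genes. In both libraries labelled Foxp1cKO, 11 were above and 7 below all controls, against 11.5% and 13.1% of all genes. DESeq2 called 2 of them, Lrp6 and Fzd8, both higher, against 2.97% of all genes, and limma called 0. Their median log2 fold change was 0.033. Ctnnb1, which encodes beta-catenin itself, was at 1519, 1593, 1457 and 1542 CPM in controls 1 to 4. In the libraries labelled Foxp1cKO it was at 1282 and 1473 CPM, which overlaps the controls, with a log2 fold change of -0.15 (SE 0.0913, edgeR adjusted p = 0.520). It was at -0.053 without the first of these and at -0.27 without the second.

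Among 10 measured Wnt ligands of 19 listed, Wnt7b and Wnt7a, the ligands that signal to brain endothelium, were the most abundant. Wnt7b was at 164, 161, 161 and 117 CPM in controls 1 to 4 and at 111 and 132 CPM in the libraries labelled Foxp1cKO (log2 fold change -0.31, SE 0.156, edgeR adjusted p = 0.441). Control 4 was as low as these, so the groups overlapped. The value was -0.19 without the first library labelled Foxp1cKO and -0.46 without the second. Without control 4 it was -0.42, with an unadjusted p of 0.00304 and an adjusted p of 0.114 from edgeR's test. Wnt7a was at 57.1 ± 5.96 CPM (SD, n = 4) and 65.5 ± 7.04 CPM (SD, n = 2), a log2 fold change of 0.20. This was 0.30 without the first library labelled Foxp1cKO and 0.066 without the second. Among ligands with at least 10 counts on average, the largest fold changes were those of Wnt2b and Wnt6, at -1.80 and -1.40, both under 1 CPM in every library. Wnt6 had 1 count in the first library labelled Foxp1cKO, and its value was -0.57 without control 1, -0.69 without that library and -3.69 without the second. Of ligand processing genes and R-spondins, 5 of 6 were measured and 0 passed the test. Rspo2, an R-spondin of the medial cortex, was at 1.07, 1.69, 0.329 and 0.673 CPM in the controls and at 0.258 and 0.237 CPM in the libraries labelled Foxp1cKO, below every control (log2 fold change -1.91, SE 0.676, edgeR adjusted p = 0.332, and under 0.05 before adjustment). Rspo1 had a log2 fold change of -2.43, which became 0.11 without control 2, where it was at 5.20 CPM against 0.432 CPM or less in the other libraries.

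All 19 receptors and co-receptors were measured, of which 15 were higher and 4 lower. In both libraries labelled Foxp1cKO, 5 were above and 0 below all controls, against 11.5% and 13.1% of all genes. Their summed level was 1047 to 1248 CPM in the controls and 1315 to 1327 CPM in the libraries labelled Foxp1cKO. Fzd3 and Lrp6 were the most abundant, at 378 ± 18.1 and 161 ± 6.02 CPM in the controls (SD, n = 4). Both were above every control in the libraries labelled Foxp1cKO, Fzd3 at 452 and 415 CPM and Lrp6 at 198 and 186 CPM. Neither passed edgeR's test, with log2 fold changes of 0.20 (adjusted p = 0.368) and 0.25 (adjusted p = 0.279). Fzd8, taken up here because DESeq2 called it and thus after its values were seen, had a log2 fold change of 0.44 (SE 0.105, edgeR adjusted p = 0.242). Fzd5 and Fzd10 had the largest log2 fold changes of the list, 0.84 and -0.59, with overlapping groups. Single libraries weighed on both: Fzd10 was at -0.13 without control 1, and Fzd5 ran from 0.36 without the first library labelled Foxp1cKO to 1.31 without control 3. Of 16 antagonists 12 were measured. Sfrp1, a secreted Frizzled-like protein, was the most abundant. It was at 459, 517, 313 and 649 CPM in controls 1 to 4, lowest in control 3, and the libraries labelled Foxp1cKO lay inside that range at 577 and 581 CPM (log2 fold change 0.26, SE 0.25, edgeR adjusted p = 0.692). Without control 3 its fold change was 0.083 and without control 4 it was 0.43. Draxin, which blocks Lrp co-receptors and guides axons, followed with a log2 fold change of -0.22, which was -0.13 without control 3 and -0.40 without control 4. Frzb and Dkk2 had the largest fold changes among antagonists with at least 10 counts on average, at -1.13 and -0.90, with overlapping groups. Dkk2 ran from -0.45 without the first library labelled Foxp1cKO, and -0.47 without control 1, to -1.61 without the second library labelled Foxp1cKO. Apart from these, the log2 fold changes of 16 cytoplasmic transducers lay between -0.17 and 0.19, Amer1 and Dvl2 being the extremes (-0.093 for Amer1 without the second library labelled Foxp1cKO and 0.11 for Dvl2 without the first), and 12 nuclear partners had a median of 0.017, with Tle2 at -0.61 and Tcf7l2 at 0.53 as the largest. Tcf7l2 was at 0.26 without the first library labelled Foxp1cKO, 0.74 without the second and 0.67 without control 4. Amer1 was at -0.27 without the first library labelled Foxp1cKO, and Dvl2 at 0.25 without the second.

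A wider list of 16 genes reported as Wnt targets, less specific than the 9 above, had 15 measured. Of these 0 passed edgeR's test, 12 were positive and 2 were under 0.05 before adjustment, against 13% of all genes. In both libraries labelled Foxp1cKO, 3 were above and 0 below all controls, against 11.5% and 13.1% of all genes. Their median log2 fold change was 0.12. Their summed level was 1306 to 1589 CPM in the controls and 1605 to 1654 CPM in the libraries labelled Foxp1cKO. Ccnd1, which encodes cyclin D1, had the largest, at 170, 215, 199 and 257 CPM in controls 1 to 4 and 323 and 276 CPM in the libraries labelled Foxp1cKO, above every control (0.51, SE 0.159, edgeR adjusted p = 0.291). Id2, which encodes an inhibitor of helix-loop-helix factors, had the lowest value at -0.50 (SE 0.273, edgeR adjusted p = 0.474), with overlapping groups. It was at -0.25 without the first library labelled Foxp1cKO and at -0.83 without the second.

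**Figure D5:**
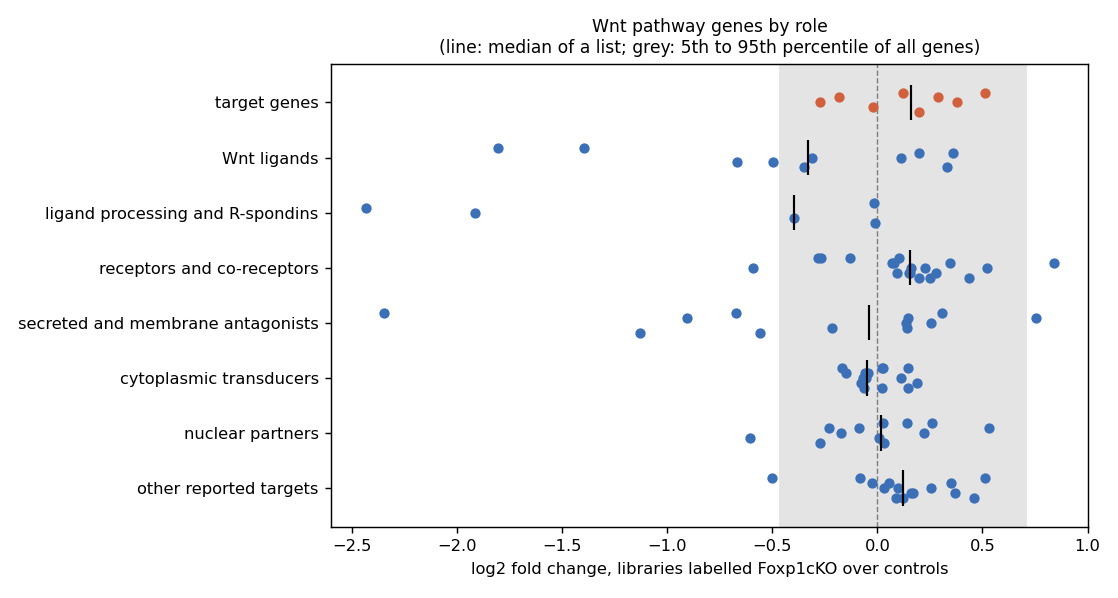
Log2 fold change, libraries labelled Foxp1cKO over controls (x axis), of each measured gene of the Wnt pathway by role (y axis), with the 8 targets in orange, a black line at each list's median and grey for the 5th to 95th percentile of all genes (-0.46 to 0.71). The 8 targets lie inside the grey range with a median of 0.16, the lowest points are those of Rspo1 and Sostdc1, and 0 of the genes drawn passed edgeR's test.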

How the data were processed

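Stranded libraries of E12.5 lateral cortex were sequenced in paired ends. The authors used STAR for alignment to mm10 and HTSeq 0.9.1 (union) for counting, and left out low genes. The deposited table holds whole, unnormalized counts. The deposited VST values, on a log2-like scale, were used for limma only. Labels gave groups and replicate numbers. The litter that the authors modelled was not used here.

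Counts of all 17068 genes were tested in R 4.3.3 with edgeR 4.0.16 (quasi-likelihood test, TMM, group alone) and Benjamini-Hochberg adjustment at 0.05. Alternatives were DESeq2 1.42.0, limma 3.58.1, DESeq2 size factors, total counts, filterByExpr, each library left out, and a replicate block. Replicate numbers 3 and 4 occur among the controls alone, so the block compares only libraries 1 and 2 of each group. Each test was tried on simulated counts that gave every gene the same spread, with changes placed in well-counted genes. The simulation held no deviating library, so it does not show how the tests perform for the targets here. Log2 CPM used a prior count of 2. Confidence intervals of 95% took edgeR's standard errors. Positions and lengths came from GENCODE M21 (GRCm38), which held 17047 of the gene identifiers. With 4 libraries against 2, an exact permutation test cannot give a two-sided p under 0.133, so none was used.

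Members and lists were chosen with earlier results of these data known. Named genes were the 9 targets, Foxp1, Ctnnb1, genes past the threshold, the 2 largest changes in each pathway list with at least 10 counts on average, the 2 most abundant ligands, receptors and antagonists, and the 5 profiles nearest Axin2. Other names (Nkx2-1, Emx1, Emx2, Cdh5, Pecam1, Rgs5, Fzd8, Axin1, Tcf7l1, Lgr4, Sostdc1) were chosen after their values were seen. Chi-square per gene between pairs of libraries of a group was 25.9 to 193, far above counting error.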

Additional observations from a re-analysis of the deposited data

Results flagged for a closer look

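In 4 of the 52 sets of control values examined, 1 control lay far from the other 3 for the size of the range, and chance alone marks about 1 set in 20. None of the 8 targets was among them, and control 3 was the distant one in 0 of the 4. The sets held the summed regional markers but not the single ventral markers. The 0 therefore does not show that control 3 was close to the other controls. Of the ventral markers left out, Nkx2-1 was at 13.2 CPM in control 3 and between 0.216 and 0.595 CPM in the other controls. Gad2 was at 250 CPM against 57.9 to 83.6 CPM. All 9 ventral markers were highest in control 3 among the controls. Control 4 was low for Wnt7b, at 117 CPM against 161 to 164 CPM in the other controls. It was also low for Amer1, which encodes a partner of Apc, at 48.4 CPM against 55.4 to 56.7 CPM, and high for Lrp6, at 170.45 CPM against 158 to 159 CPM. Control 2 was high for Rspo1, at 5.20 CPM against 0.110 to 0.432 CPM. The cause was not tested.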

How the results depend on the processing

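No target gene passed an adjusted p of 0.05 in any alternative that gave one, over 96 values for 8 genes, with the lowest adjusted p, 0.113, for Znrf3 without control 4. DESeq2 gave no adjusted p for Lgr5. Direction held in 86 of the 96. It turned for Nkd1 with limma (0.026), with total counts (4.2e-05) and without control 2 (0.23), for Axin2 without control 3 (-0.026), for Rnf43 without control 3 (-0.071), without the second library labelled Foxp1cKO (-0.066) and with the replicate block (-0.015), for Tcf7 without control 4 (0.13) and without the first library labelled Foxp1cKO (0.33), and for Lgr5 without the second (0.30). Leaving out single libraries gave -0.026 to 0.24 for Axin2, -0.14 to 0.23 for Nkd1, -1.11 to 0.33 for Tcf7, -1.07 to 0.30 for Lgr5, -0.071 to 0.40 for Rnf43, 0.044 to 0.60 for Lef1, 0.23 to 0.76 for Sp5 and 0.27 to 0.57 for Znrf3. The median of the list ran from -0.048 to 0.29 when single libraries were left out and was 0.033 with the replicate block. Genes called over the whole table numbered 26, 507 with DESeq2's Wald test, 0 with the replicate block, and 2 (without control 2) to 96 (without control 4) when single libraries were left out. Other pathway genes called numbered 0, and 2 with DESeq2. Where 1 library labelled Foxp1cKO was left, it was assumed to vary like the controls. The cause of these changes was not tested. Replicate numbers 1 and 2 occur in both groups, but the deviations of same-numbered libraries correlated at -0.198 and 0.0157, so the numbers were not taken as pairs. The block rests on libraries 1 and 2 of each group, since numbers 3 and 4 occur only among the controls. It leaves little to estimate the spread from, so its counts do not check the results over all libraries. With the block, 2 targets, Lef1 and Znrf3, had an unadjusted p under 0.05 (adjusted p = 0.236 and 0.203, edgeR). The same held for 3027 of all 17068 genes and for 30 of the 89 other pathway genes.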
